A study of Mus musculus with 8 samples.

Results

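The genes described are 34 genes of the tricarboxylic acid (TCA) cycle and of the reactions that feed it with pyruvate and glutamine, chosen by gene symbol from the 48500 genes of the deposited table. Of these, 13 encode enzymes of the cycle, 7 bring pyruvate into it, 5 set the activity of pyruvate dehydrogenase, 5 handle citrate, malate and NADPH, and 4 handle glutamate and aspartate. RNA was measured in 8 libraries of leukaemia stem cells from the bone marrow of mice with acute myeloid leukaemia: 4 Nynrin-KO (Nynrin-/-) and 4 WT (Nynrin+/+). The leukaemias of both groups were driven by HOXA9 and MEIS1, and about 10000 cells that were GFP+, c-Kit+ and Gr-1- were sorted for each library. The sources used here give neither the deleted part of Nynrin nor the strain and age of the mice. Nor do they say that each library is a mouse of its own, so a p-value speaks only of the variation among the 8 libraries. Values are FPKM (fragments per kilobase of gene, scaled to library depth), and the libraries are called KO1 to KO4 and WT1 to WT4.

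The TCA cycle oxidises acetyl-CoA in the mitochondrion and supplies electrons to the respiratory chain. Pyruvate enters through the mitochondrial pyruvate carrier and the pyruvate dehydrogenase complex, which kinases switch off and phosphatases switch on. Glutamine carbon enters as glutamate and is turned into 2-oxoglutarate by glutamate dehydrogenase or by transaminases. Leukaemia stem cells are known to rely on mitochondrial oxidation, and mutated forms of IDH1 and IDH2 occur in human acute myeloid leukaemia.

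Recovered depth was 1830000 to 28700000 reads in the Nynrin-KO libraries and 1960000 to 33090000 reads in the WT libraries, with KO3 and WT3 the shallowest. Nynrin itself stood at 0.0982 to 0.437 FPKM in Nynrin-KO and 0.008 to 0.286 FPKM in WT, and thus cannot serve to check the labels. Kit, the gated receptor, was at 2.92 to 4.91 FPKM in Nynrin-KO and 2.63 to 6.4 FPKM in WT. Cd34, which was not part of the gate, was at 5.54 to 7.3 FPKM in Nynrin-KO and 55.7 to 151 FPKM in WT (log2 change -3.48, adjusted p = 0.000929 in limma). The part of this difference between the sorted cells in the results below was not tested. The levels of Hoxa9 were 1.7 to 6.38 FPKM in Nynrin-KO and 0.569 to 1.9 FPKM in WT, and those of Meis1 2.03 to 5.12 FPKM in Nynrin-KO and 0.664 to 0.898 FPKM in WT. Ly6g, part of the Gr-1 antigen that was gated out, stood at 93.5 to 264 FPKM in Nynrin-KO and 0.707 to 49.3 FPKM in WT. The summed level of 15 mature neutrophil genes was 125515 to 284687 FPKM in Nynrin-KO and 3051 to 104986 FPKM in WT (exact two-sided permutation p = 0.0286, the smallest that 4 against 4 can give). Of these 15, 9 rose at an adjusted p under 0.05 in limma, where 14.0% of all 12524 genes tested rose and 13.8% fell. Erythroid markers summed to 8.87 to 49 FPKM in Nynrin-KO and 0.277 to 2.57 FPKM in WT, and mast cell and basophil markers to 47.1 to 106 FPKM in Nynrin-KO and 7.88 to 9.69 FPKM in WT (both exact two-sided permutation p = 0.0286). Of 8 erythroid markers 3 were tested and rose, and of 5 mast cell and basophil markers 3 rose and 1 fell. The filter on low values asked for at least 1 FPKM in at least 4 libraries. At the WT sums given, the 3 erythroid genes may have passed it through Nynrin-KO alone, so their calls are not used as support. Monocyte and macrophage, B and T cell sums overlapped between the groups. Even so, 5 of 11 monocyte and macrophage markers and 1 of 4 B cell markers rose and 0 fell, against 14.0% of all genes tested that rose. Of the T cell markers 0 were tested. Sex markers follow the groups in 7 of the 8 libraries: Xist was at 12.7 FPKM in KO1 but only 0.0175 to 0.366 FPKM in the other Nynrin-KO libraries, against 15.2 to 26.5 FPKM in WT. The Y-linked gene Ddx3y was at 2.18 FPKM in KO1 and 18.2 to 20.7 FPKM in the other Nynrin-KO libraries, against 0 to 0.111 FPKM in WT. Sex and genotype therefore cannot be told apart in the results below, including for the 3 X-linked genes Idh3g, Pdha1 and Pdk3.

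The cycle genes Cs, Idh2, Idh3a, Idh3g, Suclg1, Suclg2, Sucla2, Fh1 and Mdh2, the kinase gene Pdk1, the malic enzyme gene Me2 and both aspartate transaminase genes were lower in Nynrin-KO than in WT. Of the 31 genes that passed the filter on low values (at least 1 FPKM in at least 4 libraries), 13 fell and 0 rose at an adjusted p under 0.05 in limma, while 13.8% of all 12524 genes tested fell and 14.0% rose. The 13 that fell make 41.9% of those tested, and 29 of the 31 estimates lay below 0. The genes were chosen with earlier results of these data known, so these shares describe this set only. By unadjusted p under 0.05, 18 were lower and 1, Glul, was higher. The groups did not overlap for 13 of the 31, all lower in Nynrin-KO, against 15% of all genes tested that were lower without overlap. They are Dlat, which did not pass, and 12 of the genes that fell, since the groups overlapped for Cs. The median log2 change of the 31 was -0.67, against -0.03 over all genes tested. Most of these genes are well expressed, and among genes with a mean of at least 10 FPKM, a minimum chosen after the data were seen, the share that fell was 27.9% of all 3565 and 43.5% of the 23 from this set. All 13 that fell stood at 1 FPKM or more in every library, so none passed the filter through 1 group alone. In bulk RNA, fewer cells of a type and less RNA per cell cannot be told apart.

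**Figure D1:**
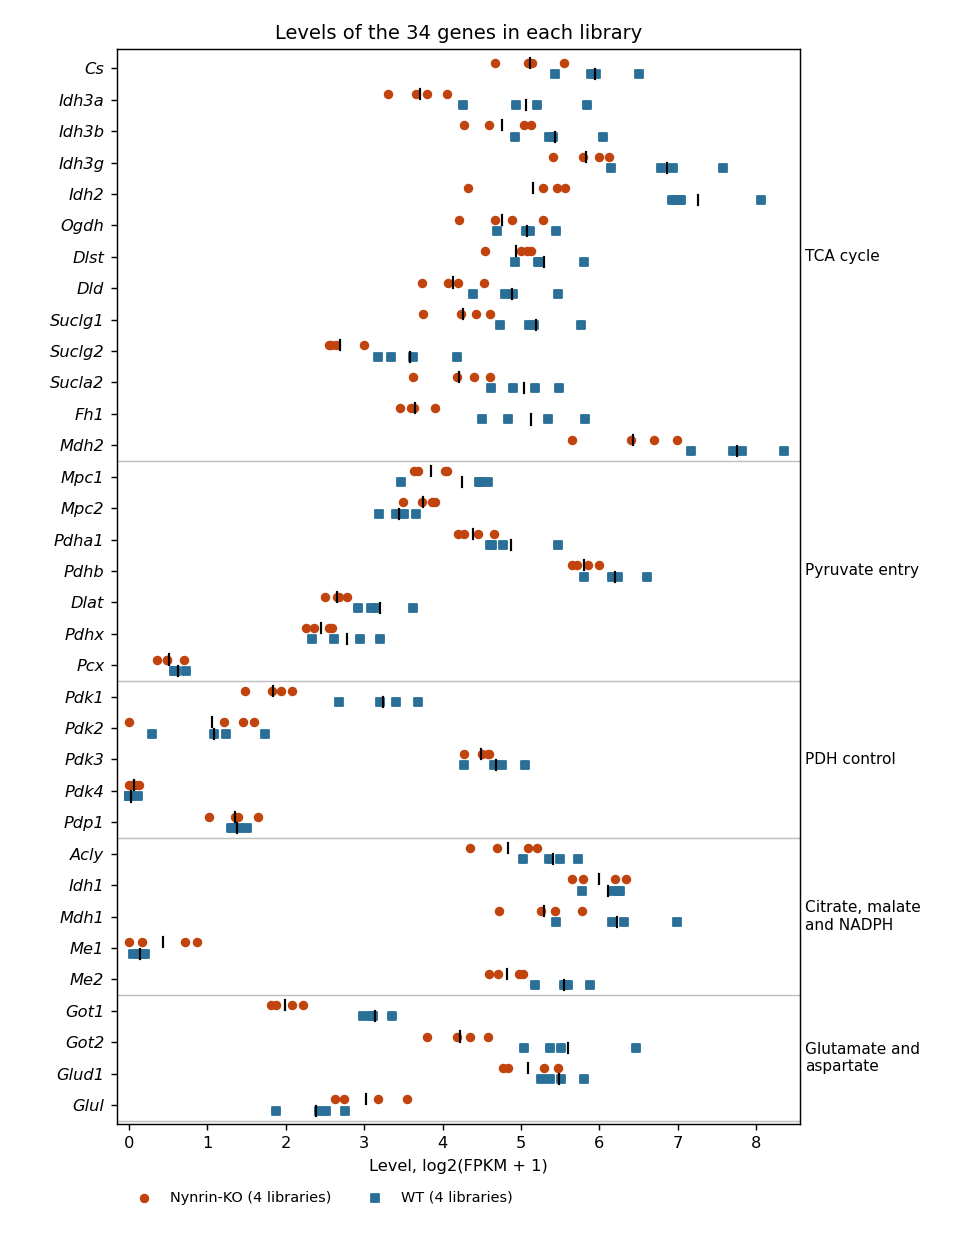
Level of each of the 34 genes, as log2(FPKM + 1), in 4 Nynrin-KO libraries (circles, upper row of each gene) and 4 WT libraries (squares, lower row), with the group mean as a black line. Idh2 and Fh1 leave a clear gap between the groups, while Idh1, Pdk3 and Pdp1 overlap.

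Promoter windows from RefSeq (GRCm38.p6, the assembly also called mm10), 250 bases before to 50 after each annotated start, were found by symbol for 31 of the 34 genes. Idh3a, Me2 and Pdp1 had no entry. The windows were searched for 4 motifs on both strands: the E-box bound by MYC (CACGTG), the NRF1 motif, the motif of oestrogen-related receptors (TCAAGGTCA) and the cyclic AMP response element (TGACGTCA), with 0 overlaps between motifs in these windows. The E-box letters were in the windows of 3 genes, Ogdh, Pcx and Pdk2, none of which fell, and in 0 of the 11 matched genes that fell. They occurred in 11.9% of the 42 windows of the set and in 7.15% of all 32851 windows. The NRF1 letters occurred in Dld and Sucla2, in 4.76% of the 42 windows of the set and 4.6% of all windows. The cyclic AMP letters occurred in Mdh2 and Ogdh, in 9.52% of the 42 windows and 1.79% of all windows. Apart from the window of Mdh2, those with the cyclic AMP letters are overlapping windows of Ogdh that share the same site. The oestrogen-related receptor letters occurred in 0 windows of the set and 0.423% of all windows. The windows of Idh2, whose fall was the largest, of Mdh2 and Sucla2, which fell and hold a motif, and of Ogdh, which holds the E-box and did not pass the test, are shown 5′ to 3′, with motif letters in capitals. The letters describe the windows only, and several of the Ogdh windows overlap each other.
Idh2 (chr7:80115301-80115600, minus strand): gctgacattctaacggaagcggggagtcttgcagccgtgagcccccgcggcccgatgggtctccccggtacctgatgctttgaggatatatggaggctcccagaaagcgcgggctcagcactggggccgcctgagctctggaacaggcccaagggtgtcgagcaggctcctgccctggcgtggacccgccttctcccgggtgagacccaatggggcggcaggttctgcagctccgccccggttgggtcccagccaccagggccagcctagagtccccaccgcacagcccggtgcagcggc
Mdh2 (chr5:135778399-135778698, plus strand): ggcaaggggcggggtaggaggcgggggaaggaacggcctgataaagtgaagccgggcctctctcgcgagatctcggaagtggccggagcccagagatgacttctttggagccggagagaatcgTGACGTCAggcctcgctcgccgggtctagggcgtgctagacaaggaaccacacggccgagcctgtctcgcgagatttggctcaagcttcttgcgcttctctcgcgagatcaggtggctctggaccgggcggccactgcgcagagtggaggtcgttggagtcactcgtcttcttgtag
Sucla2 (chr14:73552536-73552835, plus strand): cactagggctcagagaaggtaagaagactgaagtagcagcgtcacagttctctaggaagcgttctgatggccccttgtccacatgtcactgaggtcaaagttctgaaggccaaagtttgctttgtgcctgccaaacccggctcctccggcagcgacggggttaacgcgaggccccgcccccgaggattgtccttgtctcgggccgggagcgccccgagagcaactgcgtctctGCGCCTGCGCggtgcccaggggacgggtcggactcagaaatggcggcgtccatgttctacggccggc
Ogdh (chr11:6291920-6292219, plus strand): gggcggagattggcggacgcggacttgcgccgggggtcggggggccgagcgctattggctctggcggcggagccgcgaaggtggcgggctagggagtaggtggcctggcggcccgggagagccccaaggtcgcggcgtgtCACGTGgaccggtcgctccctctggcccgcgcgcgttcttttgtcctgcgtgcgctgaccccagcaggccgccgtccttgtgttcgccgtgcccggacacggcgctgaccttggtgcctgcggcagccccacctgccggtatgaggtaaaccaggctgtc

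Citrate synthase and isocitrate dehydrogenases open the cycle. Cs, which joins acetyl-CoA to oxaloacetate, had 32.9, 34.2, 24.4 and 45.8 FPKM in KO1 to KO4, against 89.6, 61.2, 42.3 and 58.4 FPKM in WT1 to WT4. KO4 lay above WT3, so the groups overlapped, and the fall was close to the threshold (log2 change -0.84, SE 0.27, adjusted p = 0.0472). Idh2, the mitochondrial enzyme that makes NADPH from isocitrate (mm10 chromosome 7, 80094846 to 80115392), had 37.8, 43.1, 19.0 and 46.3 FPKM in KO1 to KO4, against 266, 131, 127 and 121 FPKM in WT1 to WT4. Every Nynrin-KO library lay below every WT library, and the mean of 36.5 ± 12.2 FPKM in Nynrin-KO was 22.6% of the 161 ± 69.7 FPKM in WT (SD, n = 4 each). This was the largest fall of the set (log2 change -2.1, SE 0.35, adjusted p = 0.0037), and without WT1 and KO1 the log2 change was -1.88 (adjusted p = 0.0191).

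Idh1, the cytosolic counterpart of Idh2, had 49.0, 79.9, 54.2 and 72.2 FPKM in KO1 to KO4, against 75.7, 75.3, 53.8 and 70.5 FPKM in WT1 to WT4. The groups overlapped throughout, with a log2 change of -0.12 (SE 0.22, adjusted p = 0.714) that turned to 0.25 under quantile normalization. Per length, Idh2 stood below Idh1 in all 4 Nynrin-KO libraries, at 0.35 to 0.772 times its level, and above it in all 4 WT libraries, at 1.72 to 3.51 times.

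The NAD-dependent isocitrate dehydrogenase has 3 kinds of subunit, and the genes of 2 of them fell. Idh3a, the catalytic subunit, had 13.0, 11.7, 8.91 and 15.6 FPKM in KO1 to KO4, against 56.2, 35.8, 18.2 and 29.7 FPKM in WT1 to WT4 (log2 change -1.35, SE 0.32, adjusted p = 0.0148). The subunit gene Idh3g had 54.2, 62.8, 41.6 and 68.7 FPKM in KO1 to KO4, against 190, 122, 69.6 and 109 FPKM in WT1 to WT4. KO4 and WT3 nearly met for this X-linked gene, which fell by 1.03 on the log2 scale (SE 0.31, adjusted p = 0.0352). Idh3b did not pass, at 18.4 to 33.9 FPKM in Nynrin-KO and 29.3 to 65 FPKM in WT (log2 change -0.67, SE 0.28, adjusted p = 0.11). The level of Idh3a was 0.366 to 0.558 times that of Idh3b in Nynrin-KO and 0.619 to 0.899 times in WT.

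Genes of the 2-oxoglutarate dehydrogenase complex did not pass, while those of succinyl-CoA ligase fell. Ogdh, the decarboxylating enzyme of the complex, stood at 17.5 to 37.8 FPKM in Nynrin-KO and 24.8 to 42.7 FPKM in WT (log2 change -0.32, adjusted p = 0.399). Dlst, its succinyltransferase, stood at 22.3 to 33.9 FPKM in Nynrin-KO and 29.3 to 54.7 FPKM in WT (log2 change -0.36, adjusted p = 0.283). Dld, the dehydrogenase it shares with pyruvate dehydrogenase, stood at 12.4 to 22.1 FPKM in Nynrin-KO and 20 to 43.4 FPKM in WT (log2 change -0.75, SE 0.26, adjusted p = 0.0609). The succinyl-CoA ligase gene Suclg1, the subunit common to both forms, had 20.5, 17.9, 12.5 and 23.4 FPKM in KO1 to KO4, against 53.5, 34.9, 25.6 and 33.2 FPKM in WT1 to WT4. Sucla2, of the ATP-forming enzyme, had 17.1, 20.2, 11.3 and 23.4 FPKM in KO1 to KO4, against 43.8, 35.1, 23.5 and 28.9 FPKM in WT1 to WT4. Suclg2, of the GTP-forming enzyme, had 4.89, 4.95, 6.99 and 5.22 FPKM in KO1 to KO4, against 17.1, 11.3, 8.02 and 9.17 FPKM in WT1 to WT4. The groups did not overlap for any of the 3 ligase genes, which fell by 0.93, 0.84 and 0.89 on the log2 scale for Suclg1, Sucla2 and Suclg2 (adjusted p = 0.0303, 0.0438 and 0.0219). For Sucla2 the gap between KO4 and WT3 was only 0.192 FPKM.

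Fumarase and malate dehydrogenase close the cycle, and both genes fell. Fh1, the fumarase gene, had 10, 11.1, 11.4 and 14.0 FPKM in KO1 to KO4, against 55.1, 39.7, 21.7 and 27.4 FPKM in WT1 to WT4. The groups stood apart, with a mean of 11.6 ± 1.68 FPKM in Nynrin-KO, 32.3% of the 36 ± 14.8 FPKM in WT (SD, n = 4 each), a difference of -1.47 on the log2 scale, SE 0.28 (adjusted p = 0.00618). Mdh2, the mitochondrial malate dehydrogenase and the highest of the 34 by mean level, had 103, 83.2, 49.1 and 126 FPKM in KO1 to KO4, against 325, 224, 143 and 207 FPKM in WT1 to WT4. Every Nynrin-KO library lay below every WT library, and it fell by 1.32 on the log2 scale (SE 0.34, adjusted p = 0.0199). Over the 13 cycle genes, 9 fell (69.2%, against 13.8% of all genes tested and 27.9% of those with a mean of at least 10 FPKM), all 13 estimates were below 0, and the median log2 change was -0.89. In 22 other fits Idh2 and Fh1 passed in 21 each, Idh3a in 19 and Mdh2 in 18, whereas Suclg2 passed in 13, Suclg1 and Sucla2 in 12 each, and Cs and Idh3g in 11 each.

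**Figure D2:**
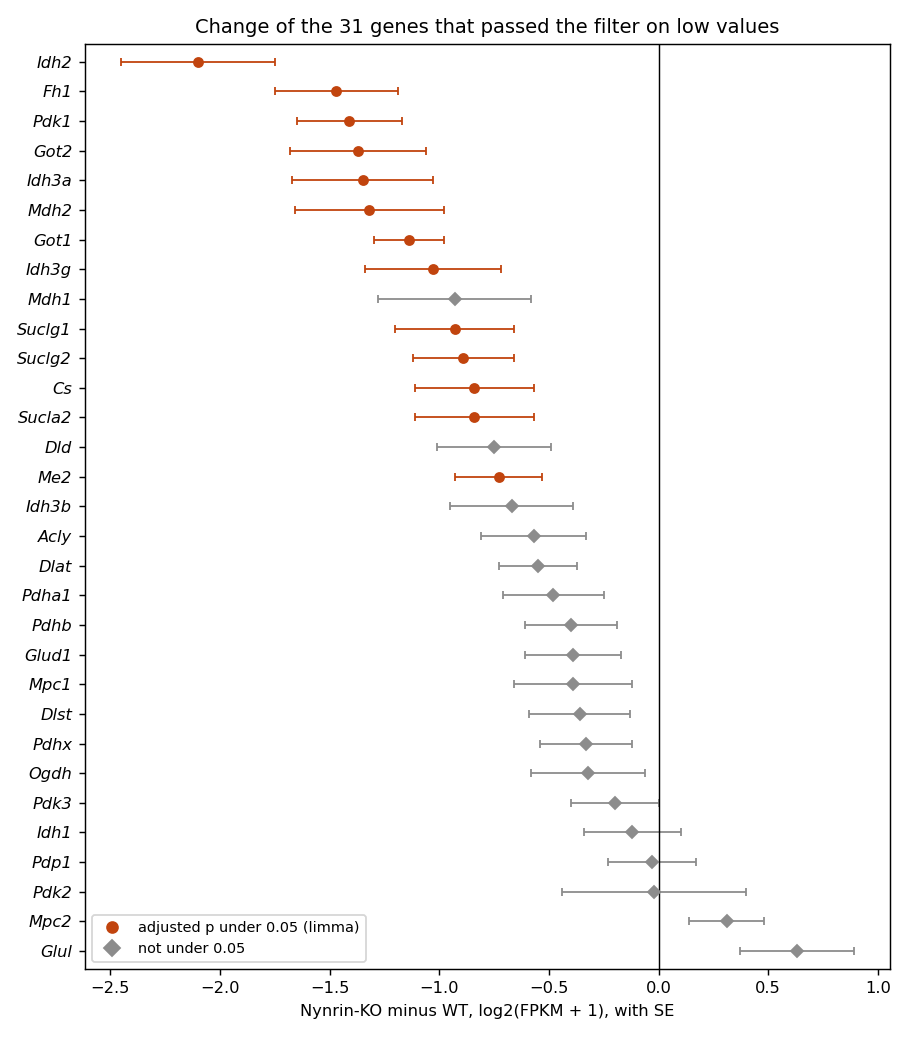
Difference between Nynrin-KO and WT in log2(FPKM + 1), with its standard error, for the 31 genes that passed the filter on low values, ordered by size. The 13 genes with an adjusted p under 0.05 (circles) run from Idh2 at -2.1 to Me2 at -0.73, and Glul at 0.63 is the highest estimate.

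At the entry of pyruvate 0 of 6 tested genes passed in limma, 1 of them, Dlat, at an unadjusted p under 0.05. With 13.8% of all genes tested falling, a count of 0 among so few genes is near the background. The median log2 change of the 6 was -0.40. Pdhb, the beta subunit of the first enzyme of pyruvate dehydrogenase, had 51.6, 56.7, 49.0 and 62.8 FPKM in KO1 to KO4, against 96.2, 74.7, 54.7 and 70.3 FPKM in WT1 to WT4. WT3 lay among the Nynrin-KO libraries, and the log2 change was -0.40 (SE 0.21, adjusted p = 0.186). Pdha1, its alpha subunit, stood at 17.3 to 24.3 FPKM in Nynrin-KO and 23.4 to 43.5 FPKM in WT (log2 change -0.48, SE 0.23, adjusted p = 0.153). Dlat, the acetyltransferase core, stood at 4.65 to 5.85 FPKM in Nynrin-KO and 6.57 to 11.3 FPKM in WT, without overlap and just short of the threshold (log2 change -0.55, SE 0.18, adjusted p = 0.0514). Pdhx, the binding protein for Dld, stood at 3.79 to 5.05 FPKM in Nynrin-KO and 4.07 to 8.24 FPKM in WT (log2 change -0.33, adjusted p = 0.264). The 2 subunits of the pyruvate carrier had estimates of opposite sign, -0.39 for Mpc1 and 0.31 for Mpc2 (SE 0.27 and 0.17, adjusted p = 0.301 and 0.21). Mpc1 stood at 11.4 to 15.7 FPKM in Nynrin-KO and 10.1 to 22.9 FPKM in WT, and Mpc2 at 10.3 to 14 FPKM in Nynrin-KO and 8.12 to 11.7 FPKM in WT. Mpc1 levels are uncertain, since the processed pseudogene Mpc1-ps was listed at 27.2 to 42.8 FPKM in Nynrin-KO and 27.8 to 74.1 FPKM in WT, and how reads were shared between the copies is not given. Pcx, the pyruvate carboxylase that makes oxaloacetate, was below 1 FPKM in every library, at 0.282 to 0.636 FPKM in Nynrin-KO and 0.491 to 0.657 FPKM in WT, and was not tested.

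Among the regulators of pyruvate dehydrogenase in the set, Pdk1 fell and the other 3 that were tested did not pass. Pdk1, a kinase that switches the complex off (mm10 chromosome 2, 71873224 to 71903858), had 3.23, 2.56, 1.79 and 2.84 FPKM in KO1 to KO4, against 11.9, 9.59, 5.41 and 8.21 FPKM in WT1 to WT4. The groups stood apart, and the Nynrin-KO mean of 2.61 ± 0.608 FPKM was 29.6% of the WT mean of 8.79 ± 2.73 FPKM (SD, n = 4 each), a difference of -1.41 on the log2 scale, SE 0.24 (adjusted p = 0.00395). The lowest library, KO3, held 17 reads of it. Pdk3 was the most abundant kinase in every library, at 18.4 to 23.1 FPKM in Nynrin-KO and 18.3 to 32.1 FPKM in WT (log2 change -0.20, SE 0.20, adjusted p = 0.496). Pdk1 made up 10.2% ± 1.48 of the summed FPKM of the 4 kinase genes in Nynrin-KO and 24.6% ± 1.63 in WT (SD, n = 4 each). Pdk2 had 0 to 2.02 FPKM in Nynrin-KO and 0.227 to 2.33 FPKM in WT, and its log2 change of -0.02 (SE 0.42) changed sign when KO3, WT2 or WT4 was left out. Pdk4 was listed at 0 to 0.0908 FPKM in Nynrin-KO and 0 to 0.0833 FPKM in WT, from 6 reads or fewer in any library, and was not tested. Pdp1, a phosphatase that opposes these kinases, stood at 1.03 to 2.13 FPKM in Nynrin-KO and 1.46 to 1.83 FPKM in WT (log2 change -0.03, SE 0.20, adjusted p = 0.933). Outside the set, the phosphatase gene Pdp2 fell, at 0.577 to 2.99 FPKM in Nynrin-KO and 3.9 to 4.88 FPKM in WT (log2 change -0.92, SE 0.28, adjusted p = 0.0388). Pdp2 passed in 10 of 22 other fits, and its lowest library, KO3, held 6 reads. Pdpr, the regulatory subunit of the phosphatase, did not pass (log2 change 0.06, adjusted p = 0.874).

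Of the enzymes outside the cycle proper that handle citrate, malate and NADPH, Me2 fell. Me2, the mitochondrial malic enzyme that turns malate into pyruvate, had 25.1, 31.5, 23.1 and 30.4 FPKM in KO1 to KO4, against 57.8, 47.5, 35.1 and 45.8 FPKM in WT1 to WT4. The groups did not overlap (log2 change -0.73, SE 0.20, adjusted p = 0.0274). Mdh1, the cytosolic malate dehydrogenase, had 37.2, 42.3, 25.3 and 54.0 FPKM in KO1 to KO4, against 126, 78.2, 42.7 and 70.3 FPKM in WT1 to WT4. KO4 lay above WT3, and the difference did not pass (log2 change -0.93, SE 0.35, adjusted p = 0.0747). Acly, which splits exported citrate into acetyl-CoA, stood at 19.4 to 36 FPKM in Nynrin-KO and 31.7 to 52 FPKM in WT (log2 change -0.57, SE 0.24, adjusted p = 0.114). Me1, the cytosolic malic enzyme, was at 0 to 0.831 FPKM in Nynrin-KO and 0.0367 to 0.155 FPKM in WT, from 20 reads or fewer in any library, and was not tested.

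Both aspartate transaminases fell, while the glutamate dehydrogenase and glutamine synthetase genes did not pass. Got1, the cytosolic transaminase (mm10 chromosome 19, 43499752 to 43524605), had 3.23, 2.51, 2.66 and 3.67 FPKM in KO1 to KO4, against 9.22, 7.62, 6.93 and 7.61 FPKM in WT1 to WT4. It had the smallest adjusted p of the set, with a mean of 3.02 ± 0.537 FPKM in Nynrin-KO against 7.85 ± 0.972 FPKM in WT (SD, n = 4 each), a difference of -1.14 on the log2 scale, SE 0.16 (adjusted p = 0.00218), and KO3 held 10 reads of it. Got2, the mitochondrial transaminase, had 17.1, 19.4, 13.0 and 22.8 FPKM in KO1 to KO4, against 87.1, 44.6, 31.8 and 40.4 FPKM in WT1 to WT4. The groups stood apart for both genes, and Got2 fell by 1.37 on the log2 scale (SE 0.31, adjusted p = 0.0127). Glud1, which releases ammonia from glutamate, stood at 26.2 to 43.5 FPKM in Nynrin-KO and 37.2 to 54.9 FPKM in WT (log2 change -0.39, SE 0.22, adjusted p = 0.219). Glul, which makes glutamine, had the highest estimate of the set, at 5.18 to 10.7 FPKM in Nynrin-KO and 2.68 to 5.73 FPKM in WT (log2 change 0.63, SE 0.26, adjusted p = 0.101), with KO1 and KO3 below WT4. With array weights Glul passed, where 2472 of all 12524 genes tested rose.

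**Figure D3:**
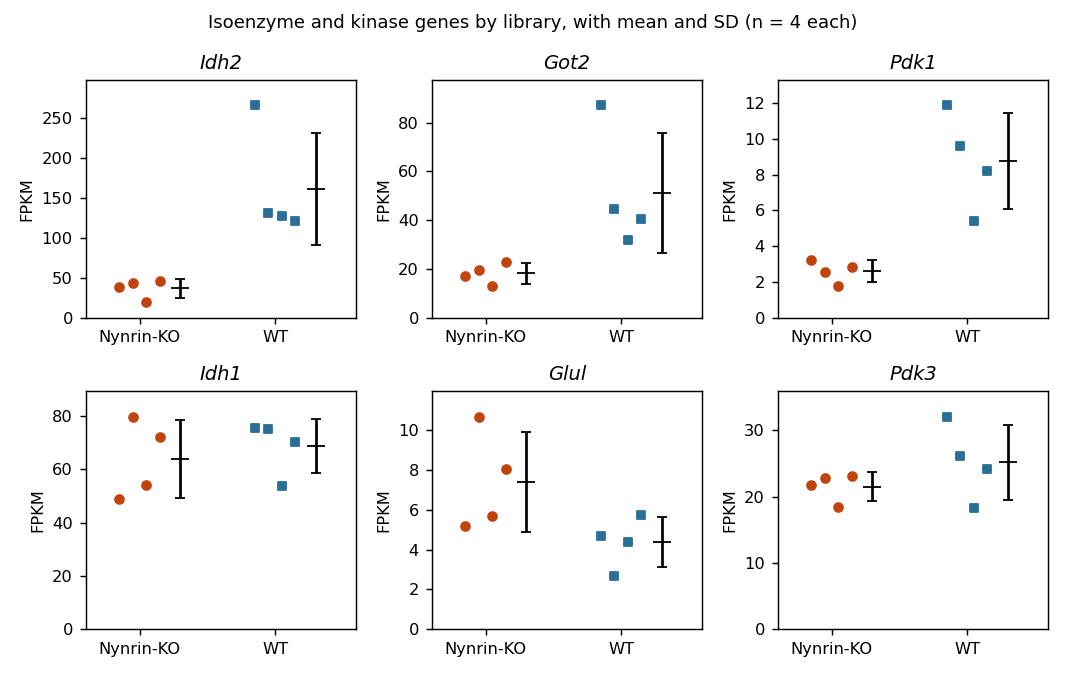
FPKM of Idh2, Got2, Pdk1, Idh1, Glul and Pdk3 in 4 Nynrin-KO libraries (circles, left) and 4 WT libraries (squares, right), with the mean and SD beside the points (n = 4 each). Idh2, Got2 and Pdk1 are lower in every Nynrin-KO library than in any WT library, whereas Idh1, Glul and Pdk3 overlap.

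The libraries of a group did not behave alike over the set. WT1 was the highest of the 8 libraries for 26 of the 31 tested genes (83.9%, against 24.1% of all genes tested). It was also the lowest in mature neutrophil genes, at 3051 FPKM against 55720 to 104986 FPKM in WT2 to WT4. WT3 was the lowest WT library for 28 of the 31 (90.3%, against 42.6%), and KO3 the lowest Nynrin-KO library for 20 (64.5%, against 42.4%). WT3 and KO3 were the shallowest libraries and also the highest in Gm10800, at 142258 and 126894 FPKM, against 3349 to 69970 FPKM in the others. The parts of depth and of Gm10800 in their low values cannot be told apart. The summed FPKM of the 34 genes was 709, 800, 555 and 919 in KO1 to KO4, against 2011, 1351, 967 and 1265 in WT1 to WT4, so every Nynrin-KO library lay below every WT library.

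A fit with 1 library left out has less power, and this was not separated from the part of the library itself. In these fits the median log2 change of the set ran from -0.47 without WT1 to -0.84 without WT3. The number of genes that fell varied among them. It was 7 without KO1 (where 11.1% of all genes tested fell), 8 without KO2 (10.9%), 9 without KO3 (14.9%) and 11 without KO4 (12.4%). It was 8 without WT1 (10.2%), 7 without WT2 (10.4%), 17 without WT3 (15.8%) and 8 without WT4 (12.1%). Without both WT1 and KO1, 5 fell (7.15% of all genes tested fell there), namely Fh1, Got1, Got2, Idh2 and Pdk1. Where Gm10800 reached 10000 FPKM or more, in 5 libraries (KO1, KO3, WT2, WT3 and WT4), Fh1, Got1, Got2 and Idh2 fell (4, with 6.42% of all genes). The median log2 change of the set was -0.75 there and -0.41 without WT1 and KO1. With the Gm10800 level as a covariate 23 fell (20.6% of all genes). With the average of the neutrophil markers added to the model, a term that itself tracks genotype, 0 of the set passed in limma (0.016% of all genes fell, 4 of the set were lower at an unadjusted p under 0.05), and 24 of 31 estimates lay below 0 with a median of -0.25. The part of mature neutrophil, erythroid and mast cell RNA in the result was not otherwise tested.

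**Figure D4:**
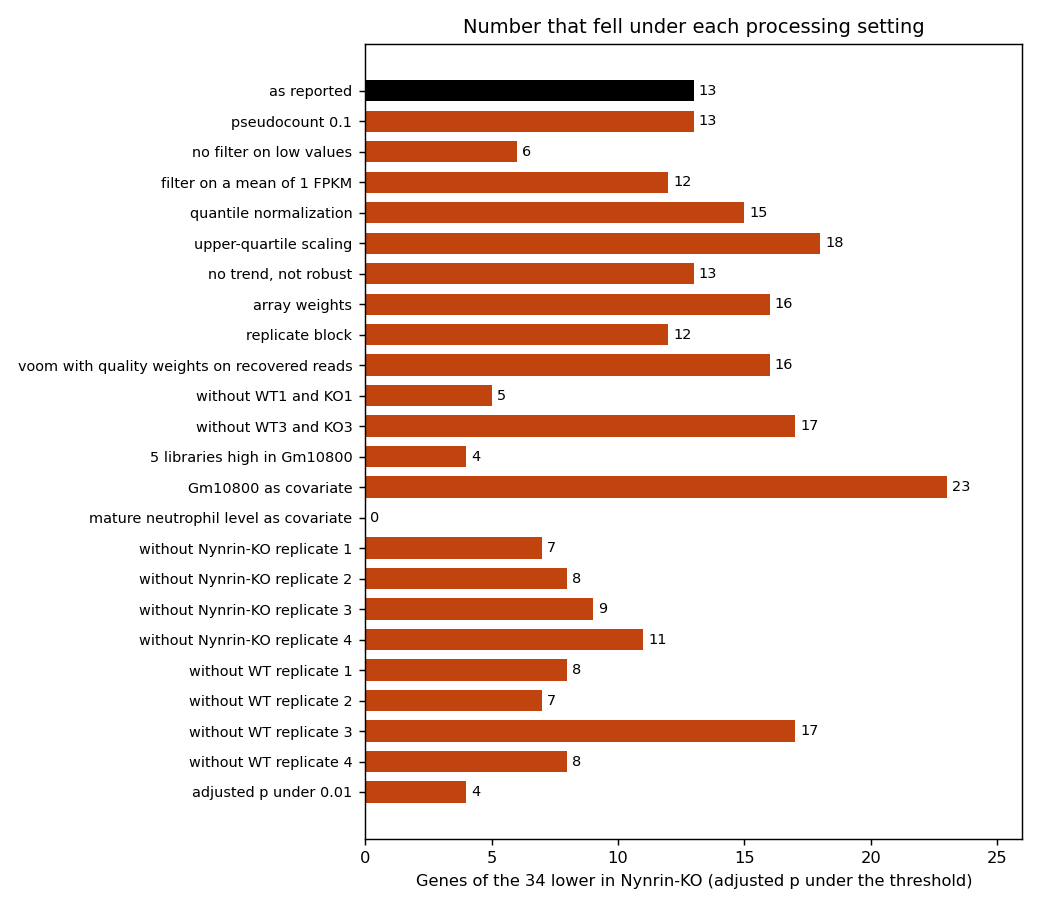
Number of the 34 genes with a lower level in Nynrin-KO and an adjusted p under the threshold, as reported (black, 13) and under each other setting. It ranges from 0 with the mature neutrophil level as a covariate to 23 with Gm10800 as a covariate.

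Of 57 listed neighbours in the TCA cycle, lactate, glutamine, serine, proline and lipid metabolism and their regulators, 46 were tested. Of these 13 fell (28.3%, against 13.8% of all genes tested) and 2, Asns and Ldhb, rose (4.35%, against 14.0%), with a median log2 change of -0.30. The list was chosen with earlier results of these data known, so these shares describe the listed genes only. Succinate dehydrogenase, which links the cycle to the respiratory chain, had Sdhd at 51.2 ± 14.6 FPKM in Nynrin-KO and 144 ± 50.5 FPKM in WT (SD, n = 4 each), a log2 change of -1.45 (adjusted p = 0.00762), and Sdhb and Sdha fell by 1.23 and 0.93 on the log2 scale. Sdhc, at 10.6 to 14.1 FPKM in Nynrin-KO and 10.8 to 28.4 FPKM in WT, did not pass (log2 change -0.55, adjusted p = 0.165). The lactate dehydrogenase genes moved in opposite directions. Ldha was at 342 ± 86.6 FPKM in Nynrin-KO and 1110 ± 328 FPKM in WT (SD, n = 4 each), a log2 change of -1.68 (adjusted p = 0.00329). Ldhb was at 4.19 ± 1.39 FPKM in Nynrin-KO and 0.297 ± 0.201 FPKM in WT (SD, n = 4 each). At 0 to 0.44 FPKM in WT, Ldhb passed the filter through the Nynrin-KO group alone. Its call (log2 change 1.98, adjusted p = 0.00167) is therefore not used as support.

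Asns, which makes asparagine from aspartate and glutamine, had 26.4, 11.7, 13.8 and 29.6 FPKM in KO1 to KO4, against 5.55, 8.48, 7.08 and 6.73 FPKM in WT1 to WT4 (log2 change 1.34, SE 0.30, adjusted p = 0.0119). The groups did not overlap. Psat1, a transaminase of serine synthesis that yields 2-oxoglutarate from glutamate, stood at 10.6 ± 2.09 FPKM in Nynrin-KO and 63.5 ± 31.4 FPKM in WT (SD, n = 4 each), a log2 change of -2.38 (adjusted p = 0.00195). Fasn, the fatty acid synthase, and Slc25a1, the citrate carrier, fell by 1.41 and 0.84 on the log2 scale (adjusted p = 0.0015 and 0.0211), and Slc25a13, an aspartate-glutamate carrier, fell by 0.85 (adjusted p = 0.0101). The gene Myc, whose product is a transcription factor of growth and metabolism, had 22.0, 22.5, 13.1 and 17.6 FPKM in KO1 to KO4, against 102, 51.9, 54.5 and 49.1 FPKM in WT1 to WT4 (log2 change -1.69, adjusted p = 0.00372). Without WT1 and KO1, 5 neighbours fell and 0 rose, where 7.15% of all genes tested fell and 6.72% rose. Ldhb was not tested there, since only Nynrin-KO libraries reached 1 FPKM of it and the filter still asked for 4 libraries.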

How the data were processed

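Per the labels' protocols, cDNA of sorted cells was made with the Smart-Seq V4 kit. The authors deposited FPKM for 48500 genes, and the header names no unit. Multiplied by the length of the longest transcript in GENCODE M21, the values of each library add up to nearly equal totals, and 1 step per library gave whole reads for 99.42% to 99.47% of values (tolerance 0.1 read). Per the submitters' processing notes, the build was mm10 and the tools Bowtie 0.12.9, Cufflinks 2.1.1 and HTSeq. The sources used here do not say how reads were counted, whether strand was used or how shared reads were treated. Gene coordinates count from 1.

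The filter kept genes reaching 1 FPKM in 4 or more libraries, also where libraries were left out. Testing used log2(FPKM + 1) in limma (version 3.58.1, under R 4.3.3), with group as the only term, trend and robust, two-sided, with Benjamini-Hochberg adjustment over all genes tested. This scale understates changes of low genes. The fit was tested on simulated data. There 21 of 92 genes with a true log2 change of 1 passed (22.8%), with a median estimate of 0.788. With a true change of 2, 62 of 92 passed (67.4%), and of 12002 unchanged genes 0 passed. Few genes were changed in the simulation, so these shares need not hold for the data. A gene that did not pass is not thereby shown to be unchanged. Python 3.11.15 made the counts, permutations and plots. Members and lists were chosen with earlier results of these data known. All 34 genes are accounted for, and those past the threshold and the 6 highest have every library's value. Up to 8 neighbours per direction with the smallest p are named, besides Sdha, Sdhc, Pdp2 and Pdpr, chosen after their values were seen. Cd34 was likewise chosen after its values were seen. Marker sums not given in the results were 1893 to 4236 FPKM in Nynrin-KO and 1329 to 2552 FPKM in WT for monocytes and macrophages (5 of 11 rose), 18.8 to 37 and 19.8 to 27.5 FPKM for B cells (Nynrin-KO and WT), and 1.07 to 5.65 and 0.201 to 1.54 FPKM for T cells (Nynrin-KO and WT). No marker was at 0 in all libraries. Alternatives covered the pseudocount, filter, scaling, weights, a replicate block, voom on recovered reads, 2 covariates, a stricter threshold and libraries left out.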

Additional observations from a re-analysis of the deposited data

Results flagged for a closer look

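In 6 of 68 groups of 4 libraries, 1 library stood apart from the rest by Dixon's criterion at its 95% level, where chance gives about 1 in 20 groups. Idh2 was at 266 FPKM in WT1 and 121 to 131 FPKM in the other WT libraries, and Pdha1 at 43.5 FPKM in WT1 and 23.4 to 26.4 FPKM in the others. Without WT1 the log2 change of Idh2 was -1.84 (limma, adjusted p = 0.00736). Suclg2 was at 6.99 FPKM in KO3 and 4.89 to 5.22 FPKM in the other Nynrin-KO libraries. Mpc1 was at 10.1 FPKM in WT3 and 21.1 to 22.9 FPKM in the other WT libraries. The low genes Pcx and Pdk4 stood at 0.657 and 0.0833 FPKM in WT4, where the other WT libraries had 0.491 to 0.517 FPKM of Pcx and were listed at 0 for Pdk4.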

How the results depend on the processing

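Against 13 members that fell, 6 fell with no filter on low values, 5 without WT1 and KO1, 4 in the 5 libraries high in Gm10800, 23 with Gm10800 as a covariate, 0 with the mature neutrophil level as a covariate, 4 at an adjusted p under 0.01, and 7 to 17 with 1 library left out. Of 299 such values for the 13 genes, 218 stayed past the threshold, 81 did not and 0 changed sign. The cause was not tested. Over all genes tested, 908 of 48500 fell with no filter and 783 of 12524 at an adjusted p under 0.01. With array weights 1 member, Glul, rose, where 2472 of all 12524 genes tested rose. Neighbours that fell numbered 5 with no filter, 5 without WT1 and KO1, 7 in the 5 libraries, 0 with the neutrophil covariate, 5 at 0.01 and 7 to 16 with 1 library left out. Neighbours that rose numbered 0, 0 and 0 without WT1 and KO1, in the 5 libraries and with the neutrophil covariate, 1 at 0.01, and 1 to 2 with 1 library left out. Ldhb was not tested in any fit that left out a Nynrin-KO library, so its absence there is not a lost call. Over all genes, 3488 changed, against 1698 with no filter, 1579 without WT1 and KO1, 925 in the 5 libraries, 5 with the neutrophil covariate and 1454 at 0.01. Sign changes were seen among genes that had not passed. With the neutrophil covariate the log2 change was 0.04 for Dlst, 0.07 for Pdha1, 0.09 for Pdk3, 0.13 for Pdp1 and 0.06 for Idh1. Pdk2 had 0.06 with array weights, 0.20 with voom, 0.07 without WT3 and KO3, and -0.29 to 0.33 with 1 library left out. Pdp1 had 0.04 with array weights, 0.02 with voom, 0.12 without WT1 and KO1, and -0.13 to 0.08 with 1 library left out. Idh1 had 0.25 under quantile normalization and 0.04 without WT1 and KO1. Of the same-numbered pairs only number 3 deviated together (correlations -0.213, -0.389, 0.329 and 0.00756 for numbers 1 to 4), so the numbers were not taken to pair the libraries. With the replicate block 12 members fell, Suclg2 no longer passing (log2 change -0.89, adjusted p = 0.0549), and 2838 genes changed. KO3 and WT3, at 1830000 and 1960000 reads, limit the low genes: 3 reads of a 1 kb transcript are 1.64 FPKM in KO3 and 1.53 FPKM in WT3, counting error only.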
